A study of Homo sapiens with 6 samples.

Results

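The 10 inducible heat shock genes examined here (HSPA1A, HSPA1B, HSPA8, DNAJB1, HSPH1, BAG3, HSP90AA1, HSPD1, HSPE1 and HSPB1) were chosen by name as chaperones and co-chaperones under the heat shock response, out of 62252 annotated genes, and they hold 123 of 251612 annotated transcripts. Their RNA was measured in K562 cells, an erythroid leukemia line, after overnight treatment with 10 µM 21H7, a cell-permeable iron chelator (Chelator, n = 3), or with the same volume of its solvent DMSO (DMSO, n = 3). Both groups were the unmodified line in the same complete medium, and the labels describe the libraries of a group as biological replicates without saying more of how the cultures were kept apart. PolyA-selected RNA was sequenced in paired-end reads, giving 78.6 M to 90.4 M estimated counts per DMSO library and 85.4 M to 101 M per Chelator library. The K562 markers GATA1, TAL1, KLF1, LMO2, HBG1, HBG2 and HBZ stood at 1 TPM (a level per unit of transcript length, scaled to one total for all libraries) or more in every library, and their summed TPM ran from 9669 to 10754 in DMSO and from 12611 to 13425 in Chelator. Of markers of other cells, MS4A1 and CDH5 were listed at 0 throughout, while PTPRC (20.7 to 25.4 TPM in DMSO, 18.5 to 19.2 in Chelator) and EPCAM (62.3 to 68.8 and 45.6 to 50.3) were detected in every library. None of these 3 levels overlapped between the groups, and the part of these shifts in the results on the 10 genes was not tested.

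Heat shock proteins are chaperones that bind unfolded proteins and either refold them or pass them on for degradation. In unstressed cells the transcription factor HSF1 is held inactive by chaperones, and when unfolded proteins accumulate HSF1 binds heat shock elements, repeated units of the letters GAA and their complement TTC, upstream of these genes. Several of them, such as HSPA8, HSP90AA1 and HSPD1, are also abundant in growing cells without stress, and many cancer lines hold HSPA1A and HSPA1B at a high level.

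With chelation, 8 of the 10 genes fell, none rose, and HSPB1 and BAG3 did not pass the test. A gene was counted as lower at a DESeq2 adjusted p under 0.05, which was met by 18.3% of all 24542 genes tested and by 44.6% of the 4022 genes with a mean normalized count at least as high as the lowest of the 10, BAG3. HSPA1A, HSPA1B and HSPH1 fell by more than 1 on the log2 scale, as did 2.6% of all genes tested. Over the 10 genes the log2 fold change had a median of -0.72, against 0.02 over all genes tested and -0.13 over the 4022 genes counted at least as highly. Together the 10 genes took 0.924% to 0.939% of the counts in a DMSO library and 0.524% to 0.561% in a Chelator library. In bulk RNA, fewer cells expressing a gene and less RNA of it per cell cannot be told apart.

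**Figure D1:**
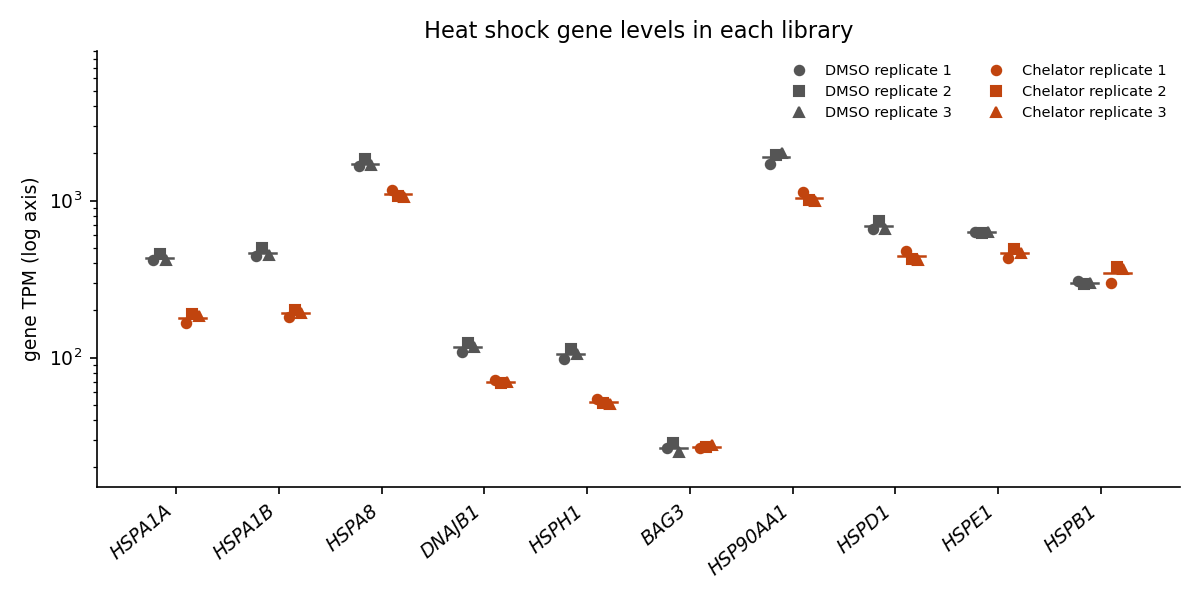
TPM of each of the 10 genes in each of the 6 libraries on a log axis, with grey for DMSO, red for Chelator, a marker shape for each replicate number and a short line at the group mean. The Chelator libraries sit below the DMSO libraries for 8 genes, and the groups overlap for HSPB1 and BAG3. The share of all genes whose groups separate in this way was not counted.

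The sequences upstream of these genes show what they share by position. Within the 250 bases before the start of the most used transcript, 8 of the 10 genes held a heat shock element of at least 2 units (GAANNTTC or TTCNNGAA, each of which reads the same on both strands), against 11.6% of 35116 RefSeq promoter windows of the same length (build GRCh38.p14). A 3-unit element (GAANNTTCNNGAA or TTCNNGAANNTTC, one being the other on the opposite strand, and each containing 2 overlapping 2-unit elements) stood before HSPA8, HSPH1, HSP90AA1 and HSPD1, 4 of the 10 genes, against 0.441% of the windows. A match of letters is a description and shows no binding. Transcripts that begin within 100 bases of that start held 91.4% to 100% of each gene's TPM on average in either group. Other letters were also counted. TATAAA or TTTATA stood only before HSPA1A and HSPA1B, as TATAAA in both (10.7% of windows). CCAAT or ATTGG stood before 5 of the 10 genes (32.0% of windows). ACGTG or CACGT, the core of sites bound by hypoxia-inducible factors, stood before HSPH1 and HSPE1 (18.5% of windows). RefSeq windows at the start in use were found for 9 of the 10 genes, and that of HSPH1 was read from hg38 at the GENCODE start. The following stretches, 5′ to 3′ on the coding strand and ending before the start site, are those of genes that fell most (HSPA1A, HSPA1B, HSPH1, HSP90AA1), of the co-chaperone DNAJB1, and of HSPB1, which did not pass the test. Capitals mark the heat shock elements, and bases within annotated exons were left out.
HSPA1A, chr6:31815293-31815542, plus strand: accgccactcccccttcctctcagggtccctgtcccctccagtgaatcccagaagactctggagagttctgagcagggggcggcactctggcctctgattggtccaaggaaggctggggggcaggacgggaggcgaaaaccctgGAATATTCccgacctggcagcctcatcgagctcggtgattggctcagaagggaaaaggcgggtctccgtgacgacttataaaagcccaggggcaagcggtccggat
HSPA1B, chr6:31827488-31827737, plus strand: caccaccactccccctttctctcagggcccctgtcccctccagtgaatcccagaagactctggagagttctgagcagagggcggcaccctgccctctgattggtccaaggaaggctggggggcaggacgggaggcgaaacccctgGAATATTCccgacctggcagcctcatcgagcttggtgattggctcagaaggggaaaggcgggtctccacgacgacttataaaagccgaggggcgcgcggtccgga
HSPH1, chr13:31161928-31161981, minus strand: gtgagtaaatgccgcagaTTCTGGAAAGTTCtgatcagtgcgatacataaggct
HSP90AA1, chr14:102087045-102087294, minus strand: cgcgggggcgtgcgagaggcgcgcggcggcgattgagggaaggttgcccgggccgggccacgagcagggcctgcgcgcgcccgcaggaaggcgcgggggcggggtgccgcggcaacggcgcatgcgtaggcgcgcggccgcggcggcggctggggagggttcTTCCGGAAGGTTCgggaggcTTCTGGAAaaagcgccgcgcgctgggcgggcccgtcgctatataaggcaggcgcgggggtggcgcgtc
DNAJB1, chr19:14518408-14518647, minus strand: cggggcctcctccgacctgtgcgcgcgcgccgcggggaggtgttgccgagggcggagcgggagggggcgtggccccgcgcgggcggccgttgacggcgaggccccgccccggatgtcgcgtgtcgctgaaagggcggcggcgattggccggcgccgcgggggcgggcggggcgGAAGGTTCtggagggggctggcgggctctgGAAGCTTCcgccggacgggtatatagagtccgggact
HSPB1, chr7:76302423-76302672, plus strand: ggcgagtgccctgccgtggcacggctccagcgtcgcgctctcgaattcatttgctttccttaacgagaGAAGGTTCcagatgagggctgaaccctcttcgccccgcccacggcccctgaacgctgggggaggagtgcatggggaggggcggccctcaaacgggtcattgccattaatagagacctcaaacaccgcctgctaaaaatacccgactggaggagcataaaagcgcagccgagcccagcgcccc

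HSPA1A and HSPA1B, the stress-inducible cytosolic HSP70 chaperones, had the largest falls of the 10. The genes lie on chromosome 6 of GRCh38, HSPA1A (ENSG00000204389.10) at 31815543 to 31817946 and HSPA1B (ENSG00000204388.7) at 31827738 to 31830254, with starts 12195 bases apart. Their upstream windows shown above were identical at 235 of 250 aligned bases, and in both the element GAATATTC stood about 100 bases before the start, at bases -106 to -99 in HSPA1A and -105 to -98 in HSPA1B.

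The TPM of HSPA1A was 415, 456 and 418 in DMSO and 166, 188 and 184 in Chelator. Every Chelator library was below every DMSO library. With normalized counts of 79566 ± 3334 in DMSO and 32493 ± 1281 in Chelator (SD, n = 3), HSPA1A fell by 1.29 on the log2 scale (SE 0.067, DESeq2 adjusted p = 5.06e-81).

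HSPA1B stood at 443, 500 and 453 TPM in DMSO and at 182, 199 and 193 in Chelator, again without overlap, and fell by 1.31 on the log2 scale (SE 0.061, DESeq2 adjusted p = 2.53e-101). The division of reads between these near-identical genes is uncertain: 76.9% of the 31-base sequences of the main HSPA1A transcript also occur in HSPA1B. Taken as 1 gene, HSPA1A and HSPA1B stood at 858, 956 and 870 TPM in DMSO and 348, 387 and 377 in Chelator, and fell by 1.30 on the log2 scale (SE 0.063, DESeq2 adjusted p = 3.67e-93), so their shared fall does not rest on how reads were divided. The ratio of HSPA1A to HSPA1B as estimated lay between 0.913 and 0.938 in DMSO and between 0.911 and 0.954 in Chelator, and these ranges overlap.

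HSPA8, the cytosolic HSP70 that growing cells make without stress, lies on chromosome 11 (ENSG00000109971.14, 123057489 to 123063230). The 31-base sequences of its main transcript, HSPA8-224, occurred in no other gene compared, and genes with very low counts were not compared. HSPA8 had 1652, 1837 and 1673 TPM in DMSO and 1173, 1073 and 1061 in Chelator, a separation with no overlap. It fell by 0.67 on the log2 scale (SE 0.076, DESeq2 adjusted p = 4.03e-17), which is 1.59-fold lower in Chelator. A 3-unit element, TTCTGGAAGGTTC, stood 55 to 43 bases before its start, and another, GAAAGTTCCAGAA, 230 to 218 bases before it.

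Within a library, the inducible HSP70 genes were lower relative to HSPA8 in Chelator. The TPM of HSPA1A plus HSPA1B was 0.520 times that of HSPA8 in each of the 3 DMSO libraries, and 0.297, 0.361 and 0.355 times in Chelator. The groups did not overlap, and on the log2 scale the mean ratio went from -0.94 ± 0.00073 to -1.57 ± 0.16 (SD, n = 3; exact two-sided permutation p = 0.10, the smallest that 3 against 3 libraries can give). Such a ratio does not depend on how libraries are scaled to each other. Over the 6 ratios compared, the Benjamini-Hochberg adjusted permutation p was 0.12 for 5 and 0.30 for HSPD1 over HSPE1. Chelator replicate 1 lay below the other 2 Chelator libraries in this ratio.

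Of the 3 co-chaperones of HSP70 among the 10 genes, DNAJB1 and HSPH1 fell and BAG3 did not pass the test. DNAJB1, the J protein that delivers unfolded proteins to HSP70 and stimulates its ATPase, lies on chromosome 19 (ENSG00000132002.9, 14514769 to 14560391). Its TPM was 109, 124 and 117 in DMSO and 71.7, 69.2 and 69.4 in Chelator, and the groups did not overlap. DNAJB1 fell by 0.76 on the log2 scale (SE 0.072, DESeq2 adjusted p = 1.46e-24). Before its start stood a pair of 2-unit elements, GAAGGTTC at bases -77 to -70 and GAAGCTTC at -47 to -40. The ratio of DNAJB1 to HSPA8 was 0.0659, 0.0675 and 0.0698 in DMSO and 0.0611, 0.0645 and 0.0654 in Chelator, with no overlap and a mean difference of -0.09 on the log2 scale (exact permutation p = 0.10). In estimated counts the groups overlapped in this ratio.

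HSPH1, an HSP110 protein that exchanges the nucleotide of HSP70, lies on chromosome 13 (ENSG00000120694.20, 31134973 to 31162388). HSPH1 had 98.1, 113 and 105 TPM in DMSO and 54.7, 51.2 and 50.9 in Chelator. No Chelator library reached the lowest DMSO library, and the group mean was 2.05-fold lower in normalized counts. HSPH1 fell by 1.04 on the log2 scale (SE 0.075, DESeq2 adjusted p = 3.94e-42), a value near the fold threshold of 1, and it was -0.99 with TMM size factors. The 3-unit element TTCTGGAAAGTTC stood 36 to 24 bases before its start. Its constitutive relative HSPA4 fell by 0.40 (SE 0.067), and its log2 change was -0.64 without the length offset and -0.61 from protein-coding transcripts alone. The ratio of HSPH1 to HSPA4 was 0.816, 0.796 and 0.819 in DMSO and 0.530, 0.509 and 0.520 in Chelator, with no overlap and a mean difference of -0.64 on the log2 scale (exact permutation p = 0.10). As a ratio of estimated counts the difference was -0.45, again with no overlap.

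BAG3, which releases clients from HSP70 and directs them to selective autophagy, lies on chromosome 10 (ENSG00000151929.10, 119651380 to 119677819) and was the lowest of the 10 genes. Its TPM was 26.5, 28.4 and 25.2 in DMSO and 26.4, 26.9 and 27.7 in Chelator, and the groups overlapped. The log2 fold change was -0.01 (SE 0.075, 95% interval -0.16 to 0.13, DESeq2 adjusted p = 0.917), an interval that holds none of the falls of the 8 genes that passed. BAG3 was thus higher relative to HSPA8 in every Chelator library: the ratio of BAG3 to HSPA8 was 0.0160, 0.0155 and 0.0151 in DMSO and 0.0225, 0.0250 and 0.0261 in Chelator, a mean difference of 0.66 on the log2 scale with no overlap (exact permutation p = 0.10).

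**Figure D2:**
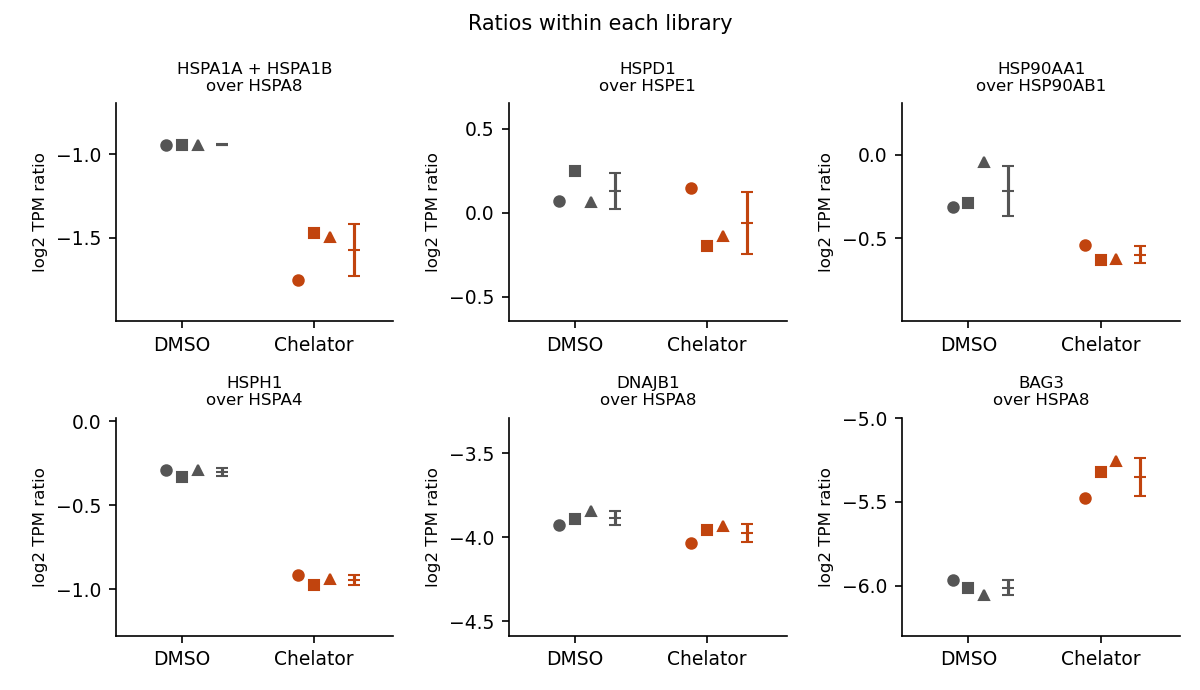
Ratio of TPM between the named genes within each library, on the log2 scale, with 1 point per library (grey DMSO, red Chelator, a marker shape for each replicate number) and the mean ± SD of each group at its right. All panels span the same log2 range, and the groups overlap only for HSPD1 over HSPE1.

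HSP90AA1, the stress-inducible cytosolic HSP90, matures kinases, receptors and other signalling proteins and lies on chromosome 14 (ENSG00000080824.19, 102080742 to 102139699). It had the highest mean level of the 10 genes in DMSO, in a range that overlapped that of HSPA8. HSP90AA1 stood at 1713, 1951 and 1995 TPM in DMSO and at 1135, 1006 and 994 in Chelator, with the groups far apart. It fell by 0.88 on the log2 scale (SE 0.093, DESeq2 adjusted p = 6.49e-20). The 3-unit element TTCCGGAAGGTTC stood 88 to 76 bases before its start, with a further 2-unit element, TTCTGGAA, at bases -68 to -61.

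Its constitutive paralog HSP90AB1 fell by 0.50 (SE 0.070, DESeq2 adjusted p = 1.90e-11). The ratio of HSP90AA1 to HSP90AB1 was 0.805, 0.819 and 0.970 in DMSO and 0.688, 0.647 and 0.649 in Chelator. The ranges did not overlap, and the mean difference was -0.38 on the log2 scale (exact permutation p = 0.10). In all 3 comparisons of an inducible chaperone with a constitutive relative (HSPA1A plus HSPA1B with HSPA8, HSPH1 with HSPA4, HSP90AA1 with HSP90AB1) the inducible one was thus lower relative to its partner in every Chelator library than in any DMSO library.

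HSPD1 and HSPE1 encode HSP60 and HSP10, the chamber and lid of the mitochondrial chaperonin, and are transcribed away from each other on chromosome 2, HSPD1 (ENSG00000144381.18) at 197486584 to 197516737 and HSPE1 (ENSG00000115541.11) at 197500140 to 197503449. The main starts are 539 bases apart. A run of overlapping 3-unit elements, TTCTGGAAAGTTC and GAAAGTTCTGGAA, stood 245 to 228 bases before the start of HSPD1, which is 294 to 311 bases before that of HSPE1 and so outside its 250-base window.

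HSPD1 had 661, 740 and 661 TPM in DMSO and 475, 427 and 420 in Chelator, with no overlap, and fell by 0.67 on the log2 scale (SE 0.079, DESeq2 adjusted p = 7.78e-16). HSPE1 had 629, 622 and 632 TPM in DMSO and 428, 490 and 462 in Chelator, also with no overlap. HSPE1 fell by 0.48 on the log2 scale (SE 0.086, DESeq2 adjusted p = 1.41e-07). In TPM the ratio of HSPD1 to HSPE1 did not separate the groups: it was 1.05, 1.19 and 1.05 in DMSO and 1.11, 0.872 and 0.909 in Chelator (mean difference -0.19 on the log2 scale, exact permutation p = 0.30). Leaving out Chelator replicate 1 gave a difference of -0.30, and leaving out Chelator replicate 2 gave -0.12. In estimated counts, which are not corrected for effective length, it was 7.10, 8.22 and 6.91 in DMSO and 6.70, 5.05 and 5.22 in Chelator, with no overlap and a mean difference of -0.40 on the log2 scale.

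HSPE1 is short, and its main transcript shares 30.9% of its 31-base sequences with the read-through transcript HSPE1-MOB4, which was given counts equal to between 0.198% and 0.729% of those of HSPE1. The effective length that salmon assigned to HSPE1, the part of a transcript that can yield fragments of the library's size, came to 264, 262 and 266 bases for DMSO and to 299, 302 and 307 for Chelator, with no overlap. Without the length offset the fall of HSPE1 was -0.30 in place of -0.48 on the log2 scale, and the part of library fragment size in this value was not tested.

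HSPB1 encodes the small heat shock protein HSP27, which holds unfolded proteins in large oligomers, and lies on chromosome 7 (ENSG00000106211.10, 76302673 to 76304295). Its TPM was 306, 294 and 299 in DMSO and 299, 378 and 365 in Chelator. Chelator replicate 1 lay within the DMSO range and the other 2 above it. The log2 fold change was 0.17 (SE 0.099, 95% interval -0.02 to 0.37, DESeq2 adjusted p = 0.161). Without Chelator replicate 1 it was 0.26 (DESeq2 adjusted p = 0.026), without DMSO replicate 2 it was 0.08 (DESeq2 adjusted p = 0.527), and without the length offset 0.32 (DESeq2 adjusted p = 0.0073). HSPB1 is also short, and its mean effective length was 662 bases in DMSO and 735 in Chelator. The part of fragment size in its value was not tested. A single 2-unit element, GAAGGTTC, stood 182 to 175 bases before its start.

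**Figure D3:**
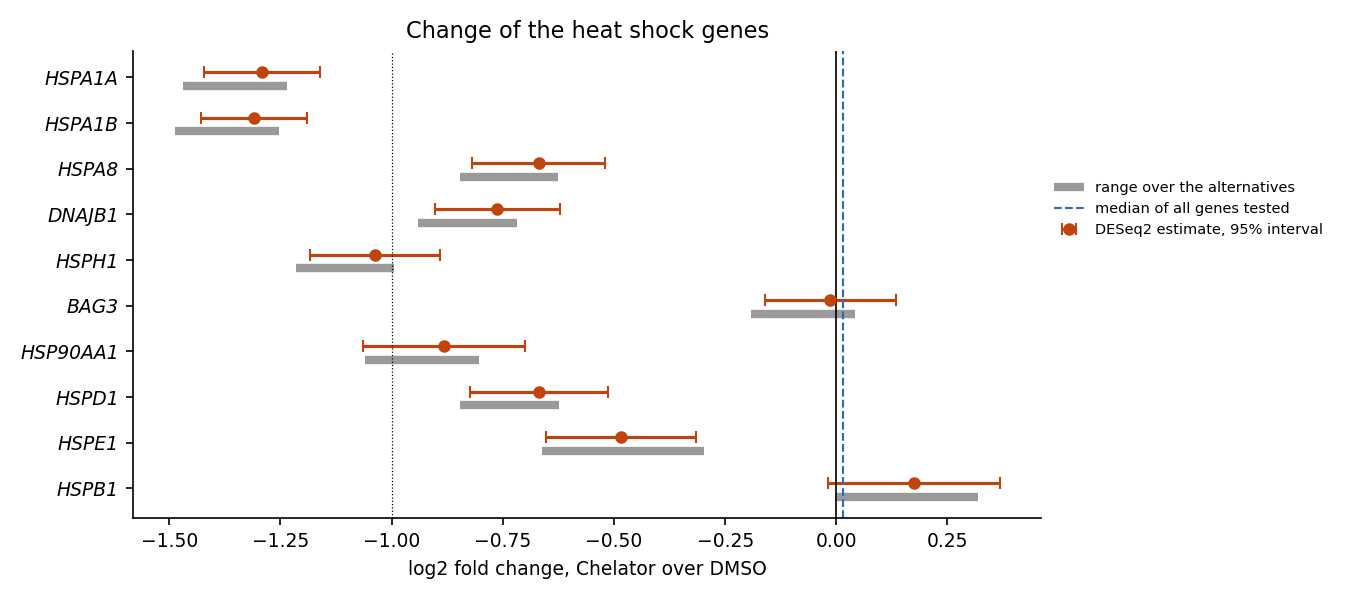
Log2 fold change of Chelator over DMSO for each of the 10 genes, with the DESeq2 estimate and 95% interval in red and the range over the other processing settings as a grey bar below it, a dotted line at the fold threshold of -1 and a dashed line at the median of all genes tested. The intervals of HSPB1 and BAG3 include 0, and those of the other 8 genes lie below it.

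By mean TPM the order of the 10 genes in DMSO was HSP90AA1, HSPA8, HSPD1, HSPE1, HSPA1B, HSPA1A, HSPB1, DNAJB1, HSPH1 and BAG3, with means from 1887 ± 152 to 26.7 ± 1.64 TPM (SD, n = 3). In Chelator HSPA8 (1103 ± 61.6 TPM) and HSP90AA1 (1045 ± 78.2) changed places, as did HSPE1 (460 ± 30.8) and HSPD1 (441 ± 29.7), but within each of these pairs the Chelator libraries overlapped. HSPB1 (347 ± 42.3 TPM in Chelator) stood below both HSPA1 genes in DMSO and above both in Chelator, with no overlap between HSPB1 and HSPA1B, its neighbour in that order. The lowest 3 places were held by DNAJB1, HSPH1 and BAG3 in both groups, and DNAJB1 and HSPH1 overlapped in DMSO (109 to 124 against 98.1 to 113 TPM). HSP90AA1 overlapped HSPA8 in DMSO, and HSPA1B overlapped HSPA1A in both groups.

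Next, the share of each transcript within its gene was compared. Usage could be tested in 9 of the 10 genes, since HSPA1B has 1 annotated transcript. An edgeR adjusted p under 0.05 was reached by HSPA8 and HSP90AA1, 2 of the 9, against 10.8% of the 11938 genes tested. Only HSP90AA1 also changed by more than 5 percentage points, against 9.22% of the genes tested. Without Chelator replicate 1, HSPH1 passed as well (edgeR adjusted p = 4.46e-10, against 0.259 with all libraries), where 9.8% of all genes passed. With 50 counts in 3 libraries required, HSPD1 passed as well (edgeR adjusted p = 0.025), where 11.5% of all genes passed.

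HSP90AA1-201, the most used coding transcript, took 66.1%, 68.3% and 58.3% of the gene's TPM in DMSO and 58.9%, 55.8% and 55.2% in Chelator. DMSO replicate 3 lay below Chelator replicate 1, so the groups overlapped. The mean change was -7.60 percentage points (edgeR adjusted p = 0.0013), and most of the difference went to HSP90AA1-203, a coding transcript of 581 bases, whose share was 35.0% ± 5.28 in DMSO and 41.6% ± 1.62 in Chelator (SD, n = 3). For HSPA8 the test over its 18 counted transcripts together gave an edgeR adjusted p of 3.87e-05. Its main transcript HSPA8-224 held 90.4%, 93.1% and 88.0% in DMSO and 89.3%, 88.9% and 85.8% in Chelator, groups that overlapped, and the mean change of -2.48 percentage points was -1.16 without DMSO replicate 2, -1.38 without Chelator replicate 3 and -3.71 without DMSO replicate 3. The minor coding transcript HSPA8-205, named after its values were seen, held 0.0637%, 0.142% and 0.0894% in DMSO and 0.442%, 1.56% and 2.10% in Chelator, with no overlap.

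HSPH1 and HSPE1 also made transcripts with no full coding frame. HSPH1-206, annotated as a target of nonsense-mediated decay, held 39.9%, 38.9% and 38.3% of the HSPH1 TPM in DMSO and 41.8%, 37.7% and 42.0% in Chelator, and the groups overlapped. Protein-coding transcripts alone gave HSPH1 a log2 fold change of -1.05. The retained-intron transcript HSPE1-206 held 4.52%, 4.36% and 4.95% in DMSO and 7.08%, 8.48% and 9.85% in Chelator, with no overlap, but HSPE1 did not pass the edgeR test (adjusted p = 0.351). Among coding transcripts, DNAJB1-201 held 87.3%, 84.9% and 82.3% of DNAJB1 in DMSO and 80.0%, 78.0% and 77.4% in Chelator, also with no overlap and no call by edgeR (adjusted p = 1.00). With limma's diffSplice, 7 of the 9 genes passed, against 32.4% of all genes, and the cause of the difference between the tools was not tested.

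**Figure D4:**
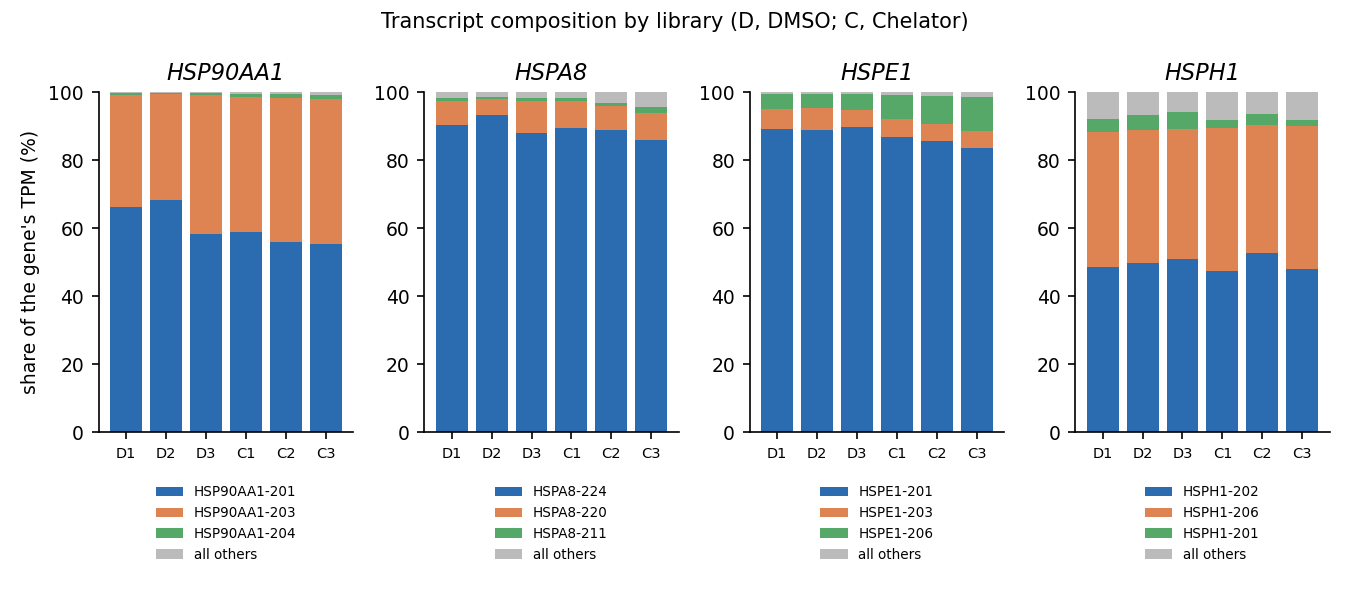
Share of each gene's TPM held by its 3 most used transcripts and by all others together, in percent, as stacked bars for each library (D1 to D3, DMSO; C1 to C3, Chelator). The blue part of HSP90AA1 is lower on average in Chelator, the green part of HSPE1 is higher in every Chelator library, and those of HSPH1 overlap between the groups for its 2 main transcripts.

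The other heat shock and folding genes were taken from lists. Of 91 other genes in 9 lists (an HSF list, HSF1 targets, HSP70 relatives, HSP70 partner factors, J proteins, HSP90 cochaperones, small heat shock proteins, mitochondrial chaperones, and the cytosolic chaperonin TRiC with prefoldin), 88 were tested, 43 fell, 11 rose and 34 did not pass (DESeq2 adjusted p under 0.05). Of all genes tested 18.3% fell and 19.5% rose, and of the 4022 genes counted at least as highly as BAG3 44.6% fell. The 88 genes lie on both sides of the count of BAG3, so neither share matches them. Their number of falls is therefore not read as a result about them. The same holds for the counts of single lists below. Past a log2 change of 1, 3 of the 88 rose, against 8.18% of all genes tested, and 2 fell, FKBP4 and HSPB2, against 2.6%. The count of 2 was 1 without DMSO replicate 1, DMSO replicate 3, Chelator replicate 1 or Chelator replicate 3, and HSPB2 averaged 52.1 normalized counts. Their median log2 fold change was -0.29, smaller in size than that of the 10 genes.

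HSF1, the main activator of these genes, stood at 92.3, 104 and 98.8 TPM in DMSO and at 92.9, 94.7 and 100.0 in Chelator, with overlapping groups (log2 fold change -0.07, DESeq2 adjusted p = 0.531). Centred on the mean of all genes, HSF1 passed at -0.24 (DESeq2 adjusted p = 0.0027). Of the 4 tested genes of the HSF list, 1 fell, HSF2, by 0.32 on the log2 scale (SE 0.090, DESeq2 adjusted p = 0.0012), or -0.50 under the same centring. With limma on log2(TPM + 1) HSF2 lost its call (-0.27, adjusted p = 0.074). These are RNA levels, and the activity of HSF1 was not measured.

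Among the 19 HSF1 targets outside the 10 genes, 9 fell, 5 rose and 5 did not pass. FKBP4, an HSP90 cochaperone, fell by 1.07 on the log2 scale (SE 0.079), and CHORDC1, another HSP90 partner, fell by 0.86 (SE 0.081). HSPA6, an HSP70 that is almost silent without stress, went the other way. HSPA6 stood at 2.14, 2.13 and 1.90 TPM in DMSO and at 6.92, 7.40 and 7.34 in Chelator, with no overlap, and rose by 1.78 on the log2 scale (SE 0.12, DESeq2 adjusted p = 4.46e-48). The HSPA6 transcripts share 0.172% of their 31-base sequences with HSPA1A and with HSPA1B but 57.0% with HSPA7, so reads may be divided between HSPA6 and HSPA7. Relative to HSPA1A plus HSPA1B, a ratio chosen after its values were seen, HSPA6 went from 0.0022 to 0.0025 in DMSO to 0.0191 to 0.0199 in Chelator. ZFAND2A, an arsenite-inducible zinc finger protein, rose by 0.63 (SE 0.12).

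Several of these genes act with HSP70. Of the 8 genes in the list of HSP70 partner factors 6 fell, none rose, and the median was -0.55, with BAG4 (-0.77, SE 0.098) and BAG2 (-0.71, SE 0.069) at the low end. Of 7 other HSP70 and HSP110 relatives 3 fell and 1 rose: HSPA14 (-0.54), HSPA4 (-0.40) and the mitochondrial HSPA9 (-0.16, SE 0.069, DESeq2 adjusted p = 0.048) were lower, and HSPA13 (0.58, SE 0.10) of the endoplasmic reticulum was higher. HSPA9 lost its call in 9 of 16 other settings, but was -0.34 under centring and -0.32 from protein-coding transcripts alone.

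Of 15 other J proteins 8 fell and 2 rose. DNAJC2 fell by 0.42 and DNAJC5 by 0.40 (-0.24 from protein-coding transcripts alone), while DNAJB2 rose by 2.09 (SE 0.13) from 1.71 ± 0.13 to 7.44 ± 0.48 TPM, and DNAJB5 by 1.59 (SE 0.18) from 0.932 ± 0.16 to 2.84 ± 0.23 TPM (SD, n = 3). HSPA6, DNAJB2 and DNAJB5 were the 3 genes of the 88 that rose past a log2 change of 1, although DNAJB5 was at 0.99 with limma on log2(TPM + 1), and each stayed below 8 TPM.

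Of 7 HSP90 cochaperones 4 fell, including PTGES3 (p23, -0.51) and TTC4 (-0.66), and none rose. Of 9 mitochondrial chaperones and proteases 3 fell, among them GRPEL1 (-0.60), the nucleotide exchange factor of mitochondrial HSP70, and TRAP1 (-0.42), a mitochondrial HSP90, while LONP1 rose by 0.20, a call lost when all genes were centred on their mean (0.021, DESeq2 adjusted p = 0.836). Of 14 subunits of TRiC and prefoldin 8 fell, with TCP1 (-0.73) and CCT6A (-0.69) lowest, and the prefoldin subunits PFDN5 (0.61) and PFDN2 (0.34) rose. PFDN2 lost its call under centring (0.16, DESeq2 adjusted p = 0.228) and without Chelator replicate 2 (DESeq2 adjusted p = 0.0517) or 3 (DESeq2 adjusted p = 0.056), and without the length offset it was 0.52. Of 5 small heat shock proteins tested 1 fell. It was HSPB2, which the naming rule did not cover.

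**Figure D5:**
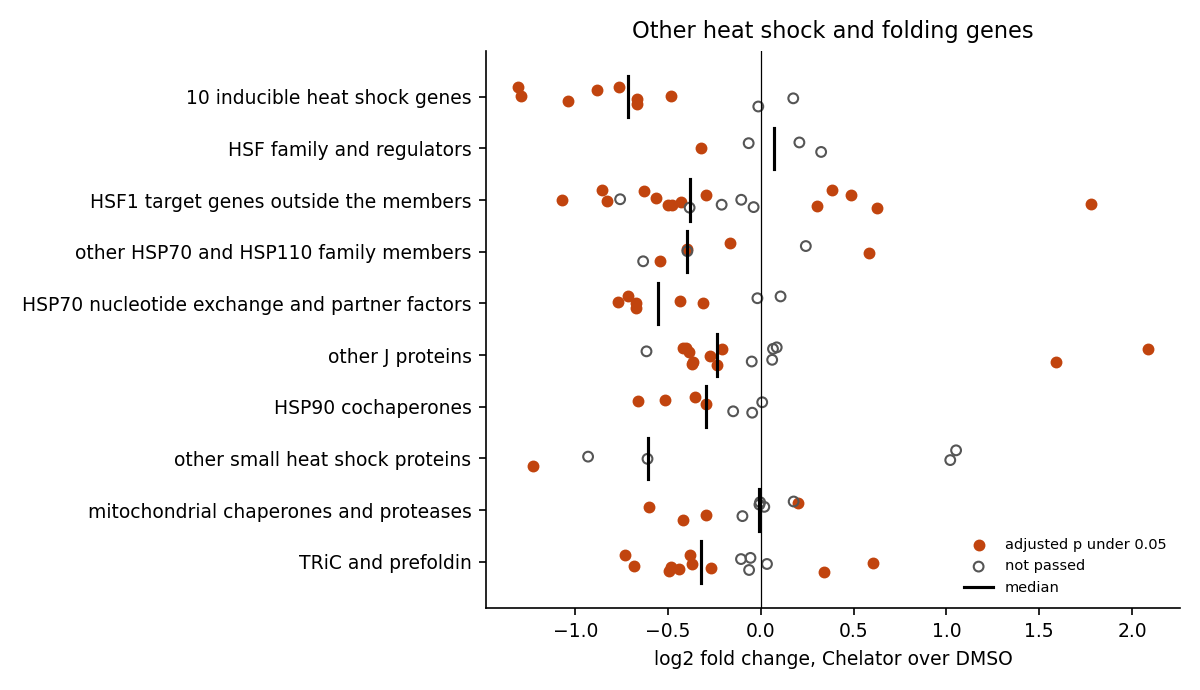
Log2 fold change of Chelator over DMSO for the 10 inducible heat shock genes and for the 9 lists of other heat shock and folding genes, 1 point per gene, filled where the DESeq2 adjusted p was under 0.05, with a black line at each median. The median of the 10 genes is -0.72 and lies left of every other list's.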

How the data were processed

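Samples were grouped by their titles. The authors quantified the reads per transcript with Salmon 1.10.2, with no pooling of replicates. The deposited files hold the estimated count of each of 252045 transcripts, which need not be whole, and its TPM as the authors' software scaled it. The labels name hg38, and the transcript annotation is not given in the sources used here.

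Transcripts were matched to GENCODE v44, with 433 unmatched (0.139% to 0.150% of counts), and summed per gene. Summed counts were rounded and tested with DESeq2 1.42.0 (R 4.3.3), Wald test, median-ratio size factors, average-length offset and a total count above 10, over 6 libraries. All 26074 such genes entered, and 24542 received an adjusted p. The fold threshold was a log2 change of 1. Transcript usage was tested with edgeR 4.0.16 (diffSpliceDGE, transcripts with 10 counts in 3 libraries). Ratios were compared by exact permutation (SciPy 1.17.1). Alternatives used edgeR and limma 3.58.1. The tests were tested on simulated data.

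Named beside the 10 genes were HSF1, HSF2, HSP90AB1, HSPA4 and HSPA9, and per list up to 2 genes that rose and 2 that fell most, where the normalized count averaged 100 or more. The 10 genes and the lists were chosen with earlier results of these data known, so their direction is no independent evidence. The p-values measure the spread between these 6 libraries, and 3 per group limit the precision. Some marker genes are not reported here.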

Additional observations from a re-analysis of the deposited data

How the results depend on the processing

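The 8 falls kept their direction and an adjusted p under 0.05 under every alternative run for the genes (TMM size factors, no length offset, other filters, centring on the mean, a replicate block, protein-coding transcripts, HSPA1A and HSPA1B summed, edgeR, limma on log2(TPM + 1), and each library left out), 15 for each HSPA1 gene and 16 for each of the others, leaving aside the test against a log2 change of 1, which HSPA1A and HSPA1B passed. The number of genes past a log2 change of 1 was 2 to 4, and 3 with each library left out, with HSPH1 and HSP90AA1 crossing the threshold. Centring the mean log2 change of all genes on 0 moved the median of all genes from 0.02 to -0.17 and the share of all genes that fell from 18.3% to 27.0%, and then BAG3 also passed at -0.19. The sign of BAG3 turned to 0.031 with TMM size factors, 0.031 with edgeR, 0.017 with limma and 0.042 with protein-coding transcripts, and lay between -0.049 and 0.023 with single libraries left out. That of HSPB1 turned to -0.0032 under centring. HSF1 passed, and LONP1 and PFDN2 lost their calls, under the same centring. For the other genes, protein-coding transcripts alone, limma and the summed HSPA1 genes were chosen after seeing the data, as were the left-out libraries for HSPA8-224. Without the length offset 8 of the 88 other genes passed a log2 change of 1, in place of 5, where 11.4% of all genes did so, and with limma 3 did, where 3.06% of all genes did so. With limma's diffSplice 7 of the 9 genes passed for transcript usage and 2 were called, in place of 2 and 1, where 32.4% and 26.7% of all genes did. The causes were not tested.

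Replicate numbers are shared between the groups, but same-numbered libraries deviated together with correlations of -0.075, 0.13 and 0.10, so the numbers were not read as pairs. With the replicate block 8 of the 10 genes fell and 3 did so past a log2 change of 1, as without it, and of the other genes only HSPA9 among those named lost its call.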
